A study of Mus musculus with 8 samples.

Results

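The mitosis and spindle genes described here are 40 genes whose products carry a cell from mitotic entry to division. They were taken from a list of names, and each was found through the probe sets (the groups of probes that an Affymetrix array reads as 1 transcript) that the platform annotation gives that symbol alone. Of the 40 genes 39 had such a probe set, 84 probe sets in all out of 45101 on the array, and Ccnb1 was named by none in the annotation used. A probe set that carried several symbols, Foxm1 among them, was given to no gene. Where a gene had several probe sets, as 25 did, it was represented by the probe set with the highest mean. Genes dimmer than a signal of 12.4, where 40% of all probe sets lie lower, were left out of the tests, which removed Ndc80 and Cdc25c and left 37 members among 13173 of 18193 genes. The rule of membership reads no measured value, but the list was proposed with earlier results of these data known, so its counts are not independent of them.

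Total RNA of mouse cerebral cortex was hybridised to 8 arrays, 1 per sample, and the title of the series concerns how astroglia respond to fibroblast growth factor-2 (FGF2). Each of 4 treatments had 2 samples: vehicle alone, FGF2 alone, FGF2 together with U0126, and FGF2 together with SB202190. U0126 inhibits the kinases MEK1 and MEK2, which activate ERK, and SB202190 inhibits the kinase p38, so both inhibitor groups also received FGF2, and no group received an inhibitor alone. The sources used here do not give the strain, age, culture, doses or times. For the second FGF2 with SB202190 sample the label names a different type of treatment step from the other 7 but the same agents. Whether the replicates were separate animals or cultures is not stated, so every p-value reflects only how far these samples spread, possibly for technical reasons, and the number of arrays limits the precision.

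As a cell prepares to divide, cyclins A and B activate the kinase Cdk1, the duplicated chromosomes condense, and microtubules form a spindle that attaches to each chromosome at its kinetochore. The spindle checkpoint holds back the anaphase-promoting complex until every kinetochore is attached, after which sister chromatids separate and a contractile ring divides the cell. The transcripts of these genes are made mostly in G2 and M phase and are low in resting cells. Astrocytes of the adult cortex rarely divide, while FGF2 is a mitogen for astroglia and neural progenitors in culture.

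The promoters of this gene class are known for a pair of short elements, the cell cycle genes homology region (CHR), which is bound by the MuvB complexes that repress these genes in resting cells and activate them in G2 and M phase, and the CCAAT box, which is bound by NF-Y. Promoter windows of 300 bases, from 250 before to 50 after the annotated start, were taken from RefSeq (GRCm38.p6), which gave 36 windows for 34 of the 40 genes. TTTGAA was the only form of the CHR searched for and is called the CHR letters here. Read on both strands (TTCAAA on the other), it stood in 27 of the 36 windows (75%), against 17.9% of 32851 windows of all genes. CCAAT, read on both strands (ATTGG on the other), stood in 29 windows (80.6%), against 37.4% of all windows. Both stood in 24 windows (66.7%), against 6.95% of all windows. Matches of either motif were counted wherever they lay, also where neighbouring matches touched. A match is a description of these letters and not a site of binding.

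Of these windows 4 are shown because their genes had among the smallest p-values with FGF2 and because they differ in these letters. Cdk1 and Top2a held both, Anln held the CHR letters alone and Bub1 the CCAAT letters alone. Other forms of the CHR were not searched for, in Bub1 or elsewhere. They are the minus-strand windows chr10:69352863-69353162 for Cdk1, chr11:99024140-99024439 for Top2a, chr9:22389157-22389456 for Anln and chr2:127831810-127832109 for Bub1, written from 5′ to 3′ along the gene with the matches in capitals.
Cdk1: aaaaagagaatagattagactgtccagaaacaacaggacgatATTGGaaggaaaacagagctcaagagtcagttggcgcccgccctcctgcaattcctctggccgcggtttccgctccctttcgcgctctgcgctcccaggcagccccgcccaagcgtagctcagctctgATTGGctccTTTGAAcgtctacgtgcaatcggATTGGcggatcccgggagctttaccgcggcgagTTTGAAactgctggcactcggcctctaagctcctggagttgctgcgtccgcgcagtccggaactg
Top2a: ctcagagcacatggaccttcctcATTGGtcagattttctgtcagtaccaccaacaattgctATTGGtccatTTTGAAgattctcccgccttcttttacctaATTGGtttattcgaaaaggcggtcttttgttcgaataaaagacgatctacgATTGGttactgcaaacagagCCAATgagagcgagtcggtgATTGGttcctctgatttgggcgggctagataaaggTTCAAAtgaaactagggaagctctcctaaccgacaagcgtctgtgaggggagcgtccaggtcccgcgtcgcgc
Anln: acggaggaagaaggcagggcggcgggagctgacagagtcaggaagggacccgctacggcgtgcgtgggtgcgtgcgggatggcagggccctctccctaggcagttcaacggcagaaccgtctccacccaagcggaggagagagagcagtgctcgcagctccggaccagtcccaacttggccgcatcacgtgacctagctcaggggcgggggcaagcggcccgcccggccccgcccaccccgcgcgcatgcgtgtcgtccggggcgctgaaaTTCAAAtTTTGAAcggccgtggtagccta
Bub1: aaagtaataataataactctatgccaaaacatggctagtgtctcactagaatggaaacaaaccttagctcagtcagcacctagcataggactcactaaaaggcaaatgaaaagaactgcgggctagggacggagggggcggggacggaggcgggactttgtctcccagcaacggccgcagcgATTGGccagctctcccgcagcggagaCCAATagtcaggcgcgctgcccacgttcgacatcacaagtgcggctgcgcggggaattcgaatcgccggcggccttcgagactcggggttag
With distances counted from the start, negative before it, the CHR letters of Cdk1 were centred at -68 and -12 bases and its CCAAT letters at -45.5, -77.5 and -205.5 bases. In Top2a the CHR matches lay at -176 bases, among 6 CCAAT matches, and at -20 bases, after all of these. In Anln both CHR matches lay after the start, at 24 and 31 bases. Over all member windows the 36 CHR matches had a median centre of -11.5 bases from the start, and the 64 CCAAT matches had a median centre of -67 bases. The overlapping windows of Ect2 and of Prc1 were counted separately, so letters they share enter these counts more than once.

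**Figure D1:**
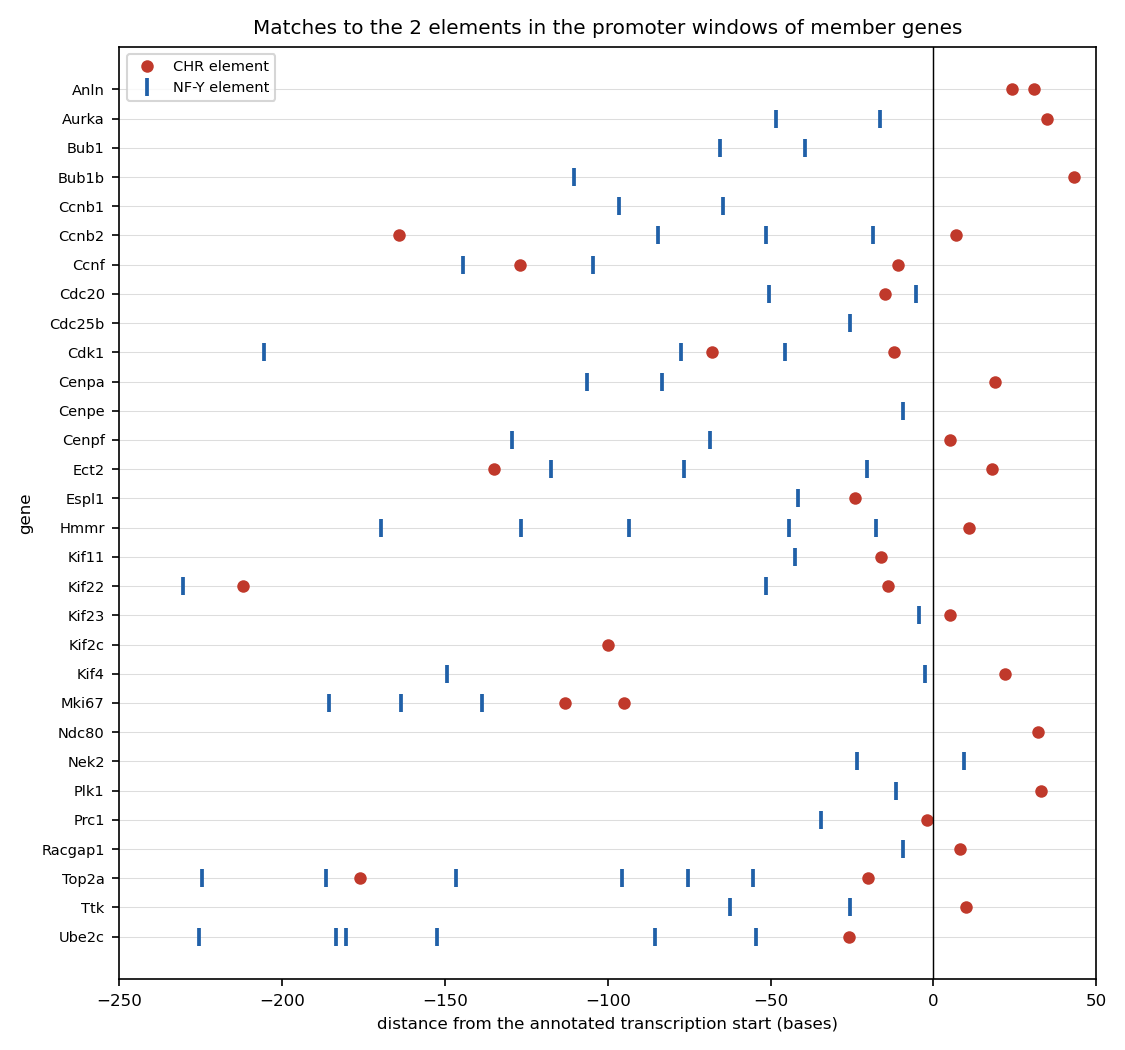
Matches to TTTGAA (CHR, points) and CCAAT (NF-Y, bars), on either strand, in the promoter windows of the member genes that hold at least 1 match, by distance in bases from the annotated transcription start (line at 0). Ect2 and Prc1 have more than 1 window, and only the window with the lower start coordinate is drawn. Counts here are over all windows, so a match in overlapping windows of these genes counts in each. The CHR matches gather near the start, 26 of 36 within 50 bases of it. Most CCAAT matches, 41 of 64, lie in the 100 bases before it.

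FGF2 raised most of these transcripts. Of the 37 members tested 25 were higher with FGF2 than with vehicle at an adjusted p under 0.05 (limma, Benjamini-Hochberg over all genes tested), and 0 were lower, where 18.9% of all genes tested were called higher and 19% lower. At an unadjusted p under 0.05 limma gave 29 members higher and 0 lower. The share of all genes at that threshold was not counted, so this and later unadjusted counts have no background. The median change of the members was 1.00 on the log2 scale, against -0.0040 for all genes, and 17 of the 25 called members changed at least 2-fold. Changes ran from -0.08 (Espl1) to 2.04 (Bub1). Changes are on the scale log2(signal + 1.77) after quantile normalization, which understates those of the dimmest genes. In a bulk sample fewer cells of a type and less RNA per cell cannot be told apart. Leaving out the second FGF2 array left 15 members called. With array medians set equal in place of quantiles, the median of all genes was 0.16, the calls over all genes were 4017 higher and 1479 lower in place of 2489 and 2504, and the members had 29 calls, all higher, with a median of 1.07.

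With U0126 added the members were lower again. Against FGF2 alone 23 of 37 fell and 0 rose, beside 10.5% of all genes called lower and 11.7% higher, and the unadjusted counts were 28 lower and 0 higher in limma. The median change was -0.82, against 0.03 for all genes. Changes ran from -2.42 (Kif20a, with both U0126 signals below the filter) to 0.12 (Tpx2), and 14 of the called members changed at least 2-fold. Leaving out the first FGF2 array left 15 members called. This comparison and that of FGF2 with vehicle share the FGF2 arrays, so their counts are not independent.

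With SB202190 added 1 member, Cdc20, was called lower than with FGF2 alone and 0 were called higher, beside 1.7% of all genes called lower and 1.32% higher. At an unadjusted p under 0.05 limma gave 7 members lower and 0 higher, a count with no share of all genes beside it. The median change was -0.29, against -0.0048 for all genes, and 34 of the 37 estimates lay below 0. Few single members passed the test here, which does not show that SB202190 left them as they were.

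**Figure D2:**
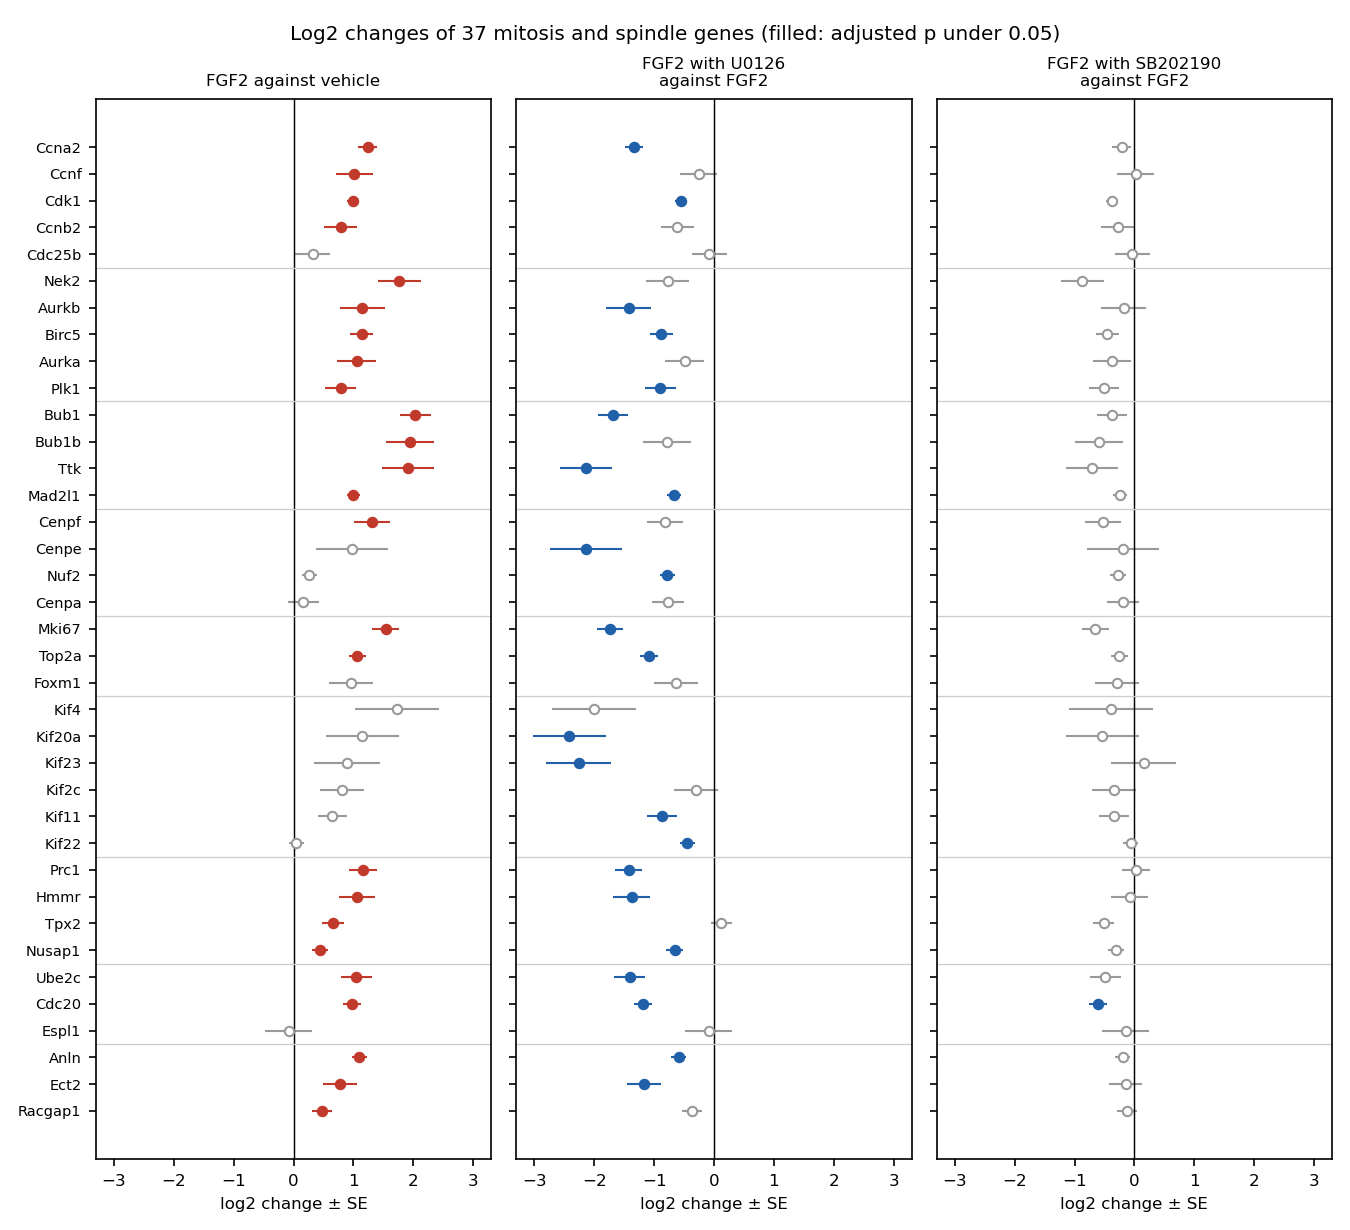
Log2 change (points) with its SE (bars) of the 37 members tested, grouped by role, in FGF2 against vehicle, FGF2 with U0126 against FGF2 and FGF2 with SB202190 against FGF2. Filled points have an adjusted p under 0.05: 25 lie above 0 in the left panel, 23 below 0 in the middle panel and 1, Cdc20, below 0 in the right panel.

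When the members were read as a set, the 2 arrays of a group lay close together, except those of FGF2 with SB202190, which lay further apart. Relative to the mean of the vehicle arrays, the median member lay at 0.95 and 1.02 on the FGF2 arrays (log2), at 0.0025 and 0.0028 on the FGF2 with U0126 arrays, and at 0.59 and 0.79 on the FGF2 with SB202190 arrays. On each FGF2 array 36 of the 37 members were above their vehicle mean, on the U0126 arrays 20 and 19, and on the SB202190 arrays 34 and 35. The quartiles of the members ran from -0.43 to 0.41 on the first U0126 array and from -0.32 to 0.40 on the second, so a median near the vehicle level covers members on both sides of it. The mean signal was highest with FGF2 for 32 members, with FGF2 and SB202190 for 3 (Ccnf, Kif23 and Prc1), with FGF2 and U0126 for Tpx2 and with vehicle for Espl1. It was lowest with U0126 for 21 members and with vehicle for 15.

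**Figure D3:**
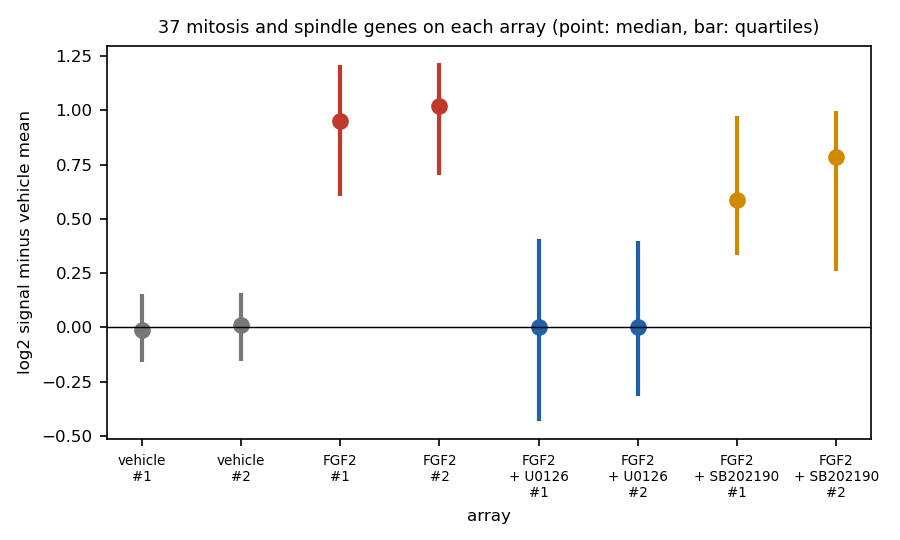
Median (point) and quartiles (bar) over the 37 members of the log2 signal minus the mean of the vehicle arrays, for each of the 8 arrays. The FGF2 arrays stand at 0.95 and 1.02, the U0126 arrays at the vehicle level and the SB202190 arrays at 0.59 and 0.79.

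Among the cyclins, Cdk1 and its phosphatases 4 of the 5 members tested rose with FGF2, and 2 of them fell with U0126. Cdk1, the kinase that drives entry into mitosis, had signals of 205 and 232 with vehicle, 425 and 439.9 with FGF2, 284 and 313 with FGF2 and U0126, and 344 and 318 with FGF2 and SB202190. The FGF2 arrays were the highest, the vehicle arrays the lowest, and the U0126 arrays lay below those of SB202190, with no overlap between any of the groups. Cdk1 rose by 0.99 ± 0.10 (log2 ± SE, n = 2 arrays per group, limma adjusted p 5.69e-06) and fell by 0.54 ± 0.10 with U0126 (adjusted p 0.00192), where it stayed 0.45 ± 0.10 above vehicle (adjusted p 0.00415). With SB202190 it differed from FGF2 by -0.38 ± 0.10 (adjusted p 0.0655).

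Ccna2, the cyclin A of S phase and early mitosis, had signals of 68.5 and 73.0 with vehicle, 162 and 158 with FGF2, 61.3 and 63.1 with U0126 and 154 and 124 with SB202190. The U0126 arrays lay below the vehicle arrays and the SB202190 arrays between vehicle and FGF2. The difference of U0126 from vehicle, -0.09 ± 0.16, was not called (limma adjusted p 0.7065). Ccna2 rose by 1.24 ± 0.16 with FGF2 (limma adjusted p 3.75e-05) and fell by 1.34 ± 0.16 with U0126 (adjusted p 6.36e-05). With SB202190 the difference from FGF2 was -0.21, with a 95% interval of -0.55 to 0.13. Ccnb2, a cyclin B, had 29.4 and 46.4 with vehicle against 55.2 and 61.5 with FGF2 and rose by 0.78 ± 0.27 (adjusted p 0.0368). That call was lost without the first vehicle array (0.42, adjusted p 0.281), either FGF2 array or either SB202190 array (adjusted p 0.0505 and 0.0505). Ccnf, an F-box protein that marks substrates for degradation, had 31.3 and 22.7 with vehicle, 42.8 and 56.0 with FGF2, 31.9 and 51.8 with U0126 and 56.5 and 44.1 with SB202190. It rose by 1.02 ± 0.31 with FGF2 (adjusted p 0.0184), while its change with U0126 was -0.25 ± 0.31 (adjusted p 0.614) with overlapping arrays. The call with FGF2 was lost without the second vehicle array (adjusted p 0.108) or the second FGF2 array (0.140). Cdc25b, a phosphatase that activates Cdk1, had 30.0 and 31.4 with vehicle, and its 8 arrays spanned 28.7 to 37.5 with a change of 0.32 ± 0.29 with FGF2 (adjusted p 0.439). Cdc25c, a related phosphatase, did not pass the filter, with signals from 1.42 to 11.4 over the 8 arrays.

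All 5 mitotic kinase genes rose with FGF2, counting Birc5, the survivin subunit of the Aurora B complex. Its signals were 50.2 and 45.7 with vehicle, 98.2 and 99.4 with FGF2, 46.9 and 58.3 with U0126 and 69.1 and 73.4 with SB202190. The U0126 arrays overlapped those of vehicle, and the SB202190 arrays lay between vehicle and FGF2 with no overlap. Birc5 rose by 1.14 ± 0.19 with FGF2 (limma adjusted p 4.14e-04), fell by 0.88 ± 0.19 with U0126 (adjusted p 0.00543) and differed by -0.46 ± 0.19 with SB202190 (adjusted p 0.247). Aurkb, the kinase that corrects faulty attachments, had 26.9 and 14.5 with vehicle, 40.8 and 38.6 with FGF2, 12.2 and 15.0 with U0126 and 35.5 and 34.2 with SB202190. It rose by 1.15 ± 0.37 (adjusted p 0.0273) and fell by 1.42 ± 0.37 with U0126 (adjusted p 0.0152). Another Aurkb probe set above the filter, 1451246_s_at, had 29.2 and 26.8 with vehicle and 28.9 and 39.4 with FGF2, which overlapped. That probe set had 18.7 and 5.65 with U0126 and 37.3 and 26.5 with SB202190. Plk1, the polo-like kinase of mitotic entry and centrosome maturation, had 33.6 and 35.5 with vehicle, 54.0 and 54.1 with FGF2, 30.8 and 24.9 with U0126 and 38.2 and 35.9 with SB202190. It rose by 0.79 ± 0.26 with FGF2 (adjusted p 0.0280) and fell by 0.90 ± 0.26 with U0126 (adjusted p 0.0241). Its U0126 arrays were below all others, though Plk1 was not called lower than vehicle there. Both Plk1 calls were lost when any 1 of the 4 arrays compared was left out, with adjusted p of 0.0581 to 0.113 for FGF2 and 0.0517 to 0.113 for U0126. The Aurkb call with FGF2 was lost without the second vehicle array (0.75, adjusted p 0.185) or either FGF2 array, and that with U0126 without either FGF2 array or the first U0126 array. Without the first U0126 array the Birc5 call with U0126 had an adjusted p of 0.0504.

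The other two kinases moved with FGF2 but not detectably with U0126. Aurka, the kinase of the spindle poles, had 35.3 and 20.2 with vehicle, 45.4 and 55.6 with FGF2, 44.4 and 26.8 with U0126 and 36.7 and 39.96 with SB202190. It rose by 1.05 ± 0.32 (limma adjusted p 0.0191) and had a change of -0.49 ± 0.32 with U0126 (adjusted p 0.313). Its call with FGF2 was lost without the second vehicle array (0.69, adjusted p 0.152) or the second FGF2 array (adjusted p 0.127). Nek2, a kinase that splits the centrosomes, had 22.6 and 13.4 with vehicle, 47.3 and 62.7 with FGF2, 28.5 and 33.5 with U0126 and 21.5 and 37.9 with SB202190. The FGF2 arrays stood above all 6 others. Nek2 rose by 1.76 ± 0.36 (adjusted p 0.00161), while its changes of -0.77 ± 0.36 with U0126 and -0.87 ± 0.36 with SB202190 had adjusted p of 0.149 and 0.233. Its probe set can bind several transcripts, and the call with FGF2 did not hold under all alternatives. Another Nek2 probe set above the filter, 1417299_at, had 24.6 and 30.0 with vehicle and 33.4 and 35.4 with FGF2, a smaller rise. That probe set had 21.2 and 26.3 with U0126 and 31.7 and 33.2 with SB202190.

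The spindle checkpoint genes had the largest median change with FGF2 of the 9 roles, 1.93, and all 4 rose. Bub1, a checkpoint kinase at the kinetochore, had 28.0 and 22.1 with vehicle, 108 and 84.1 with FGF2, 33.2 and 22.6 with U0126 and 65.8 and 79.9 with SB202190. The FGF2 and SB202190 arrays were far above the other 4, with SB202190 below FGF2. Bub1 rose by 2.04 ± 0.25 with FGF2, a 4.10-fold change (limma adjusted p 3.04e-05), and fell by 1.69 ± 0.25 with U0126 (adjusted p 4.08e-04). Ttk, the kinase Mps1 that starts the checkpoint signal, had 12.6 and 17.0 with vehicle, 63.4 and 42.0 with FGF2, 7.27 and 14.2 with U0126 and 34.0 and 27.9 with SB202190. It rose by 1.91 ± 0.43 (adjusted p 0.00317) and fell by 2.14 ± 0.43 with U0126 (adjusted p 0.00316), although its U0126 signals lie about the filter.

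Mad2l1, the Mad2 protein that binds Cdc20, was among the brighter probe sets, with 172 and 209.9 with vehicle, 394 and 360.3 with FGF2, 226 and 249 with U0126 and 322 and 311 with SB202190. Its 4 groups stood in the order vehicle, U0126, SB202190, FGF2 with no overlap. Mad2l1 rose by 1.00 ± 0.12 with FGF2 (limma adjusted p 1.63e-05), fell by 0.67 ± 0.12 with U0126 (adjusted p 0.00112) and had a difference of -0.24 with SB202190 (95% interval -0.49 to 0.01). Bub1b, the checkpoint protein BubR1, had 12.6 and 8.22 with vehicle, 42.8 and 32.5 with FGF2, 25.8 and 15.98 with U0126 and 22.3 and 25.4 with SB202190. It rose by 1.95 ± 0.40 with FGF2 (adjusted p 0.00179), and its change of -0.79 ± 0.40 with U0126 had an adjusted p of 0.193. Its vehicle mean was below the filter signal, the only such case among the 37 members, so its fold rests on a dim baseline.

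Of the 4 centromere and kinetochore genes tested 1 rose with FGF2, and 2 fell with U0126. Cenpf, a large kinetochore protein of G2 and M phase, had 26.4 and 20.2 with vehicle, 48.5 and 55.8 with FGF2, 29.7 and 26.7 with U0126 and 29.4 and 43.2 with SB202190. It rose by 1.30 ± 0.30 (limma adjusted p 0.00357), and its change with U0126 was -0.82 ± 0.30 (adjusted p 0.0678). Nuf2, a subunit of the complex that binds microtubules, had 159 and 152 with vehicle, 201 and 166 with FGF2, 108 and 104 with U0126 and 148 and 153 with SB202190. The U0126 arrays stood below every other array, those of vehicle included. Nuf2 had a change of 0.26 ± 0.13 with FGF2 (adjusted p 0.129), fell by 0.78 ± 0.13 with U0126 (adjusted p 8.07e-04), and fell by 0.51 ± 0.13 against vehicle (adjusted p 0.00760).

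Cenpe, a kinesin-like motor of the kinetochore, had 8.54 and 20.0 with vehicle, 28.1 and 19.6 with FGF2, 7.03 and 1.86 with U0126 and 24.5 and 16.7 with SB202190. Its change with FGF2 was 0.97 ± 0.60 (limma adjusted p 0.230) with arrays that overlapped, and it fell by 2.14 ± 0.60 with U0126 (adjusted p 0.0209), where both signals were below the filter, a call lost without either FGF2 array (adjusted p 0.145 and 0.0667) or the second U0126 array (0.113). Cenpa, the histone that marks the centromere, had 45.8 and 44.6 with vehicle, 44.9 and 46.7 with FGF2, 29.4 and 22.6 with U0126 and 45.4 and 35.2 with SB202190. Vehicle and FGF2 overlapped, at a change of 0.17 ± 0.26 (adjusted p 0.667), and the change with U0126 was -0.76 ± 0.26 (adjusted p 0.0531). Ndc80, the partner of Nuf2, did not pass the filter, with 2.17 and 4.69 with vehicle, 25.1 and 16.05 with FGF2, 2.41 and 9.43 with U0126 and 25.8 and 17.4 with SB202190. The FGF2 and SB202190 arrays lay above the filter signal and those of vehicle and U0126 below it, so no change is given.

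Of the 6 kinesins 0 were called with FGF2 in limma, 3 being higher at an unadjusted p under 0.05, and 4 fell with U0126. Their median changes were 0.85 with FGF2 and -1.44 with U0126, and whether the role differs from the others was not tested. Kif11, the Eg5 motor that pushes the spindle poles apart, had 41.8 and 39.3 with vehicle, 56.5 and 60.1 with FGF2, 26.9 and 35.3 with U0126 and 46.6 and 44.3 with SB202190. Its groups did not overlap, and U0126 was the lowest, though not called lower than vehicle. The change with FGF2 was 0.65 ± 0.25 (limma adjusted p 0.0551), and Kif11 fell by 0.86 ± 0.25 with U0126 (adjusted p 0.0239), a call lost without either FGF2 array or the first U0126 array (adjusted p 0.0817 to 0.149). Kif20a and Kif23 are motors of the central spindle that are needed for cytokinesis. Kif20a had 32.2 and 8.57 with vehicle, 33.9 and 33.0 with FGF2, 9.001 and 2.07 with U0126 and 19.2 and 25.9 with SB202190. It fell by 2.42 ± 0.61 with U0126 (adjusted p 0.0119), where both signals were below the filter. Its vehicle arrays lay far from each other, the lower of them at the level of U0126. The call was lost without either FGF2 array or the second U0126 array (adjusted p 0.0692 to 0.0883).

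Kif23, with a U0126 mean of 9.61 below the filter signal, had 18.6 and 34.4 with vehicle, 33.3 and 53.4 with FGF2, 16.8 and 2.43 with U0126 and 41.0 and 55.1 with SB202190. It fell by 2.26 ± 0.54 with U0126 (limma adjusted p 0.00942) from U0126 arrays that lay far from each other, a call lost without the second of them (-1.31, adjusted p 0.0771) or without the second FGF2 array (adjusted p 0.0927). Kif22, a motor on chromosome arms, had 195 and 193 with vehicle, 214 and 180.5 with FGF2, 139 and 154 with U0126 and 173 and 207 with SB202190. Only the U0126 arrays stood apart, and Kif22 fell there by 0.44 ± 0.13 against FGF2 (adjusted p 0.0257) and by 0.40 ± 0.13 against vehicle (adjusted p 0.0316). The first call was lost without the first FGF2 or the first U0126 array (adjusted p 0.202 and 0.145). Kif4, a chromosome-bound motor, had 4.61 and 34.9 with vehicle, 44.4 and 41.0 with FGF2, 17.1 and 3.81 with U0126 and 40.7 and 25.1 with SB202190. Its changes of 1.72 ± 0.70 with FGF2 and -2.01 ± 0.70 with U0126 had adjusted p of 0.0694 and 0.0566. Kif2c, which depolymerises microtubules at the centromere, had 28.6 and 21.7 with vehicle and 33.6 and 44.4 with FGF2, a change of 0.80 ± 0.37 (adjusted p 0.106), and its inhibitor arrays overlapped both.

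All 4 genes of the spindle microtubules rose with FGF2, and 3 fell with U0126. Prc1, which bundles microtubules of the central spindle, had 46.3 and 62.6 with vehicle, 129 and 101 with FGF2, 50.2 and 31.9 with U0126 and 117 and 115 with SB202190. FGF2 and SB202190 overlapped, and vehicle and U0126 overlapped. Prc1 rose by 1.16 ± 0.23 with FGF2 (limma adjusted p 0.00138), fell by 1.43 ± 0.23 with U0126 (adjusted p 7.03e-04) and had a difference of 0.03 with SB202190 (95% interval -0.47 to 0.53). Hmmr, a microtubule-binding protein of the spindle, had 24.0 and 25.8 with vehicle, 53.1 and 41.2 with FGF2, 15.2 and 18.4 with U0126 and 42.0 and 46.5 with SB202190. It rose by 1.06 ± 0.31 (adjusted p 0.0145) and fell by 1.37 ± 0.31 with U0126 (adjusted p 0.00588), calls lost without the first FGF2 array (adjusted p 0.113 and 0.064) and, for the first, without the first vehicle array (0.0651). Nusap1, which links microtubules to chromatin, had 115 and 117 with vehicle, 157 and 149.7 with FGF2, 91.1 and 102 with U0126 and 128 and 118 with SB202190. It rose by 0.44 ± 0.14 with FGF2 (adjusted p 0.0222) and fell by 0.66 ± 0.14 with U0126 (adjusted p 0.00400). The call with FGF2 was lost without any 1 of the 4 vehicle and FGF2 arrays (adjusted p 0.0524 to 0.108), and the mean of its probe sets stood at -0.33.

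Tpx2, which activates Aurora A and nucleates spindle microtubules, had another order of groups. Its signals were 57.9 and 58.2 with vehicle, 84.3 and 88.3 with FGF2, 85.5 and 105 with U0126 and 60.6 and 58.7 with SB202190. The U0126 arrays lay with or above those of FGF2, and the SB202190 arrays lay at the vehicle level. Tpx2 rose by 0.66 ± 0.18 with FGF2 (limma adjusted p 0.0113), was 0.78 ± 0.18 above vehicle with U0126 (adjusted p 0.00491) and 0.64 ± 0.18 higher with U0126 than with SB202190 (adjusted p 0.0220). Its difference with SB202190 from FGF2, -0.52 ± 0.18, had an adjusted p of 0.153. The second Tpx2 probe set, 1428105_at, gave 15.5 and 24.5 with vehicle, 40.5 and 36.9 with FGF2, 21.5 and 17.6 with U0126 and 15.3 and 21.2 with SB202190, so that its U0126 arrays lay with vehicle. The order of Tpx2 therefore depended on the probe set. Its call with FGF2 was lost without the second FGF2 array (adjusted p 0.0681), and that between the inhibitors without the second U0126 array or either SB202190 array (adjusted p 0.0666 to 0.176).

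In the anaphase group 2 of 3 rose with FGF2, and both fell with U0126. Cdc20, the activator of the anaphase-promoting complex, had 114 and 111 with vehicle, 230.0 and 204 with FGF2, 97.9 and 90.8 with U0126 and 164 and 122 with SB202190. The SB202190 arrays lay between vehicle and FGF2, and the U0126 arrays below vehicle. The difference of U0126 from vehicle, -0.21 ± 0.15, was not called (limma adjusted p 0.343). Cdc20 rose by 0.98 ± 0.15 with FGF2 (limma adjusted p 1.82e-04) and fell by 1.19 ± 0.15 with U0126 (adjusted p 1.10e-04). It also fell by 0.61 ± 0.15 with SB202190 (adjusted p 0.0492). That last call was lost when any of 7 arrays was left out, all but the first SB202190 array, with adjusted p of 0.358 without the second SB202190 array and 0.268 without the first FGF2 array. Ube2c, the ubiquitin-conjugating enzyme of the same complex, had 47.1 and 54.9 with vehicle, 85.1 and 115 with FGF2, 47.2 and 26.1 with U0126 and 69.6 and 70.1 with SB202190. It rose by 1.05 ± 0.26 (adjusted p 0.00539) and fell by 1.41 ± 0.26 with U0126 (adjusted p 0.00162), the first call being lost without the second FGF2 array (0.83, adjusted p 0.0711). Espl1, separase, had 30.9 and 39.3 with vehicle, 24.3 and 34.2 with FGF2, 19.0 and 39.1 with U0126 and 30.7 and 21.9 with SB202190. Its FGF2 and U0126 arrays overlapped those of vehicle and both SB202190 arrays lay below them, at a change with FGF2 of -0.08 with a 95% interval of -0.92 to 0.77.

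All 3 cytokinesis genes rose with FGF2, and 2 fell with U0126. Anln, the anillin scaffold of the contractile ring, had 123 and 102 with vehicle, 235 on both FGF2 arrays, 161 and 153 with U0126 and 217 and 198 with SB202190. Its groups stood in the order vehicle, U0126, SB202190, FGF2 with no overlap. Anln rose by 1.10 ± 0.12 with FGF2 (limma adjusted p 1.20e-05), fell by 0.59 ± 0.12 with U0126 (adjusted p 0.00375) and was still 0.51 ± 0.12 above vehicle there (adjusted p 0.00625). Ect2, the exchange factor that activates RhoA at the division plane, had 39.2 and 55.1 with vehicle, 81.7 and 65.8 with FGF2, 31.3 and 30.9 with U0126 and 50.4 and 86.8 with SB202190. It rose by 0.78 ± 0.28 (adjusted p 0.0429) and fell by 1.17 ± 0.28 with U0126 (adjusted p 0.00892), to below vehicle on both arrays. The difference of Ect2 with U0126 from vehicle, -0.39 ± 0.28, was not called (adjusted p 0.325). The call with FGF2 was lost without the first vehicle array (0.50, adjusted p 0.272), either FGF2 array or the second U0126 array, and that with U0126 without the first FGF2 array (adjusted p 0.0789). Racgap1, the partner of Kif23 in the central spindle, had 79.4 and 64.5 with vehicle, 94.3 and 94.96 with FGF2, 72.5 and 74.9 with U0126 and 85.6 and 87.8 with SB202190. Another Racgap1 probe set above the filter, 1421546_a_at, had 43.5 and 47.9 with vehicle and 90.9 and 87.0 with FGF2, a larger rise. The probe set that represents Racgap1 rose by 0.48 ± 0.17 (adjusted p 0.0387), and its change with U0126 was -0.36 ± 0.17 (adjusted p 0.147). The call was lost without the second vehicle array (adjusted p 0.201), either FGF2 array or either SB202190 array.

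Mki67 and Top2a rose with FGF2 and fell with U0126. Mki67, the Ki-67 protein that coats mitotic chromosomes and serves as a marker of proliferation, had 48.8 and 36.0 with vehicle, 108 and 121 with FGF2, 29.5 and 35.9 with U0126 and 69.0 and 74.2 with SB202190. FGF2 and SB202190 stood apart from each other and above the rest. Mki67 rose by 1.54 ± 0.22 with FGF2 (limma adjusted p 1.07e-04), fell by 1.73 ± 0.22 with U0126 (adjusted p 1.14e-04) and differed by -0.65 ± 0.22 with SB202190 (adjusted p 0.139). Top2a, the topoisomerase that disentangles sister chromatids, had 125 and 98.6 with vehicle, 210.3 and 246 with FGF2, 112 and 99.9 with U0126 and 178 and 207 with SB202190. It rose by 1.07 ± 0.15 (adjusted p 7.68e-05) and fell by 1.09 ± 0.15 with U0126 (adjusted p 1.91e-04). Another Top2a probe set, 1442454_at, went the other way, with 41.4 and 31.7 with vehicle, 16.6 and 15.5 with FGF2, 18.8 and 22.5 with U0126 and 12.3 and 16.8 with SB202190, a change with FGF2 of -0.93 ± 0.38 that was not called. Foxm1, a transcription factor of G2 and M phase genes, had 18.8 and 26.1 with vehicle, 36.5 and 40.6 with FGF2, 20.0 and 29.2 with U0126 and 23.8 and 40.4 with SB202190. Its change with FGF2 was 0.96 ± 0.37 (adjusted p 0.0555). Another Foxm1 probe set above the filter, 1448833_at, was lower with FGF2, at 23.4 and 18.4 against 26.3 and 27.2 with vehicle. That probe set had 10.8 and 5.88 with U0126 and 29.5 and 32.4 with SB202190.

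**Figure D4:**
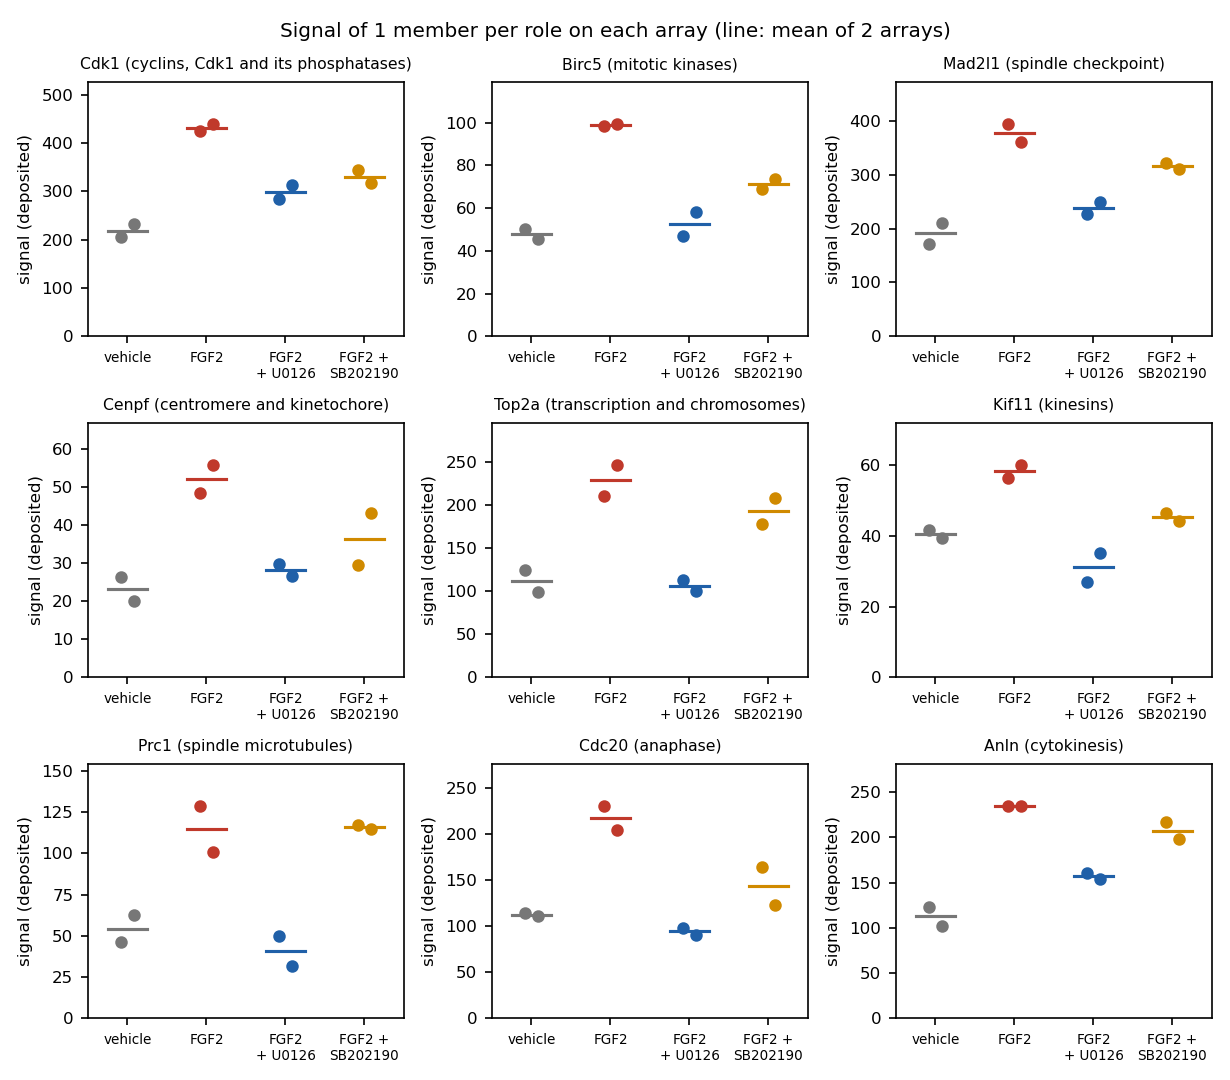
Deposited signal on each array (points) and group mean of 2 arrays (line) for the member of each role with the smallest p in FGF2 against vehicle, with the 4 groups along the axis. The members were picked by that p, so the gap between FGF2 and vehicle arrays in the 9 panels follows from the choice. Cdk1 had 425 and 439.9 with FGF2 against 205 and 232 with vehicle. Kif11 had 56.5 and 60.1 against 41.8 and 39.3. Of all 37 members 31 had both FGF2 arrays above both vehicle arrays, beside 31.8% of all genes tested.

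When every probe set was taken as a feature of its own, 58 probe sets of the members were tested, of which 31 were higher with FGF2 and 0 lower, and 29 were lower with U0126 and 0 higher. The share of all probe sets called this way was not counted, so these counts have no background. A gene with several probe sets enters them more than once. With FGF2 17 of 21 further probe sets had the sign of the probe set that represents their gene, and that of Foxm1 did not. Of 14 further probe sets of members called with FGF2 11 had the same sign. The other 3 belonged to Top2a, Tpx2 and Cenpf, and none of these was called. Against vehicle with U0126 a probe set was called in the opposite direction to the estimate of the probe set that represents its gene for Prc1 (0.87 ± 0.25) and Foxm1 (-1.27 ± 0.39). Some members are represented by probe sets that can bind several transcripts, among them those of Cdc20, Aurkb, Bub1b, Kif22, Nek2 and Prc1. The second Cdc20 probe set, 1416664_at, which carries no such mark, had 84.7 and 84.3 with vehicle, 111 and 129 with FGF2, 66.5 and 57.3 with U0126 and 73.4 and 95.1 with SB202190, in the same order as the first for FGF2 and U0126.

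Set against vehicle rather than FGF2, the inhibitor groups differed in how far the members had returned. With FGF2 and U0126 5 of 37 were higher than vehicle (Cdk1, Anln, Mad2l1, Bub1b and Tpx2) and 2 were lower (Nuf2 and Kif22), beside 16.7% and 15% of all genes, with a median of -0.11 against 0.01 for all genes. Of these 7 calls 1, Cdk1, held under all alternatives. Mad2l1 and Bub1b were each lost in 7 of the 8 fits without 1 array, Mad2l1 falling from 0.33 to 0.17 (adjusted p 0.336) without the first vehicle array and Bub1b standing at 0.89 (adjusted p 0.177) without the second. Kif22 was lost without either vehicle array or the first U0126 array, Anln without the second vehicle array and Tpx2 without the second U0126 array. With another choice of probe sets Bub1b, Tpx2 and Kif22 changed sign and none was called. Among 6 further probe sets of the called members, 2 had the sign of the probe set that represents their gene. Those with the other sign, of Anln, Bub1b, Kif22 and Tpx2, were not called. Both U0126 arrays lay above both vehicle arrays for 8 members and below them for 13, beside 31.4% and 33.0% of all genes tested. With FGF2 and SB202190 13 were higher than vehicle and 0 lower, beside 18.1% of all genes called higher and 17.8% lower, with a median of 0.68, and limma gave 0 lower at an unadjusted p under 0.05 too. These 13 were all 4 checkpoint genes, from 0.76 ± 0.12 for Mad2l1 to 1.66 ± 0.25 for Bub1, with Ccna2, Ccnf, Cdk1, Birc5, Prc1, Hmmr, Anln, Top2a and Mki67. Ttk, Bub1b, Hmmr, Birc5, Ccnf and Mki67 were lost in some fit without 1 array, and 10 to 14 members were called over these fits. Both comparisons share the vehicle arrays.

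The direct comparison of the inhibitors does not use the means of the FGF2 or vehicle arrays. With U0126 17 of 37 members were lower than with SB202190 and 1, Tpx2, was higher, beside 10.3% and 12.4% of all genes, with a median of -0.43 against 0.02 for all genes. Prc1 was lower by -1.46 ± 0.23 (limma adjusted p 5.45e-04), Ccna2 by -1.12 ± 0.16 (adjusted p 2.21e-04), Bub1 by -1.31 ± 0.25 (adjusted p 0.00224) and Mki67 by -1.08 ± 0.22 (adjusted p 0.00337). Kif23 had the largest change, -2.41 ± 0.54 (adjusted p 0.00625), a call lost without the second SB202190 array (adjusted p 0.0627). The U0126 mean of Kif23, 9.61, lay below the filter signal. For other members no difference between the inhibitors was detected: Cdk1 at -0.17 (95% interval -0.39 to 0.05), Aurka at -0.12 (-0.81 to 0.57), Nek2 at 0.10 (-0.68 to 0.87) and Bub1b at -0.19 (-1.06 to 0.68), intervals that leave room for changes of either sign. The count of 17 moved with single arrays, to 11 and 10 without the first and second U0126 array and 9 and 6 without the first and second SB202190 array.

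**Figure D5:**
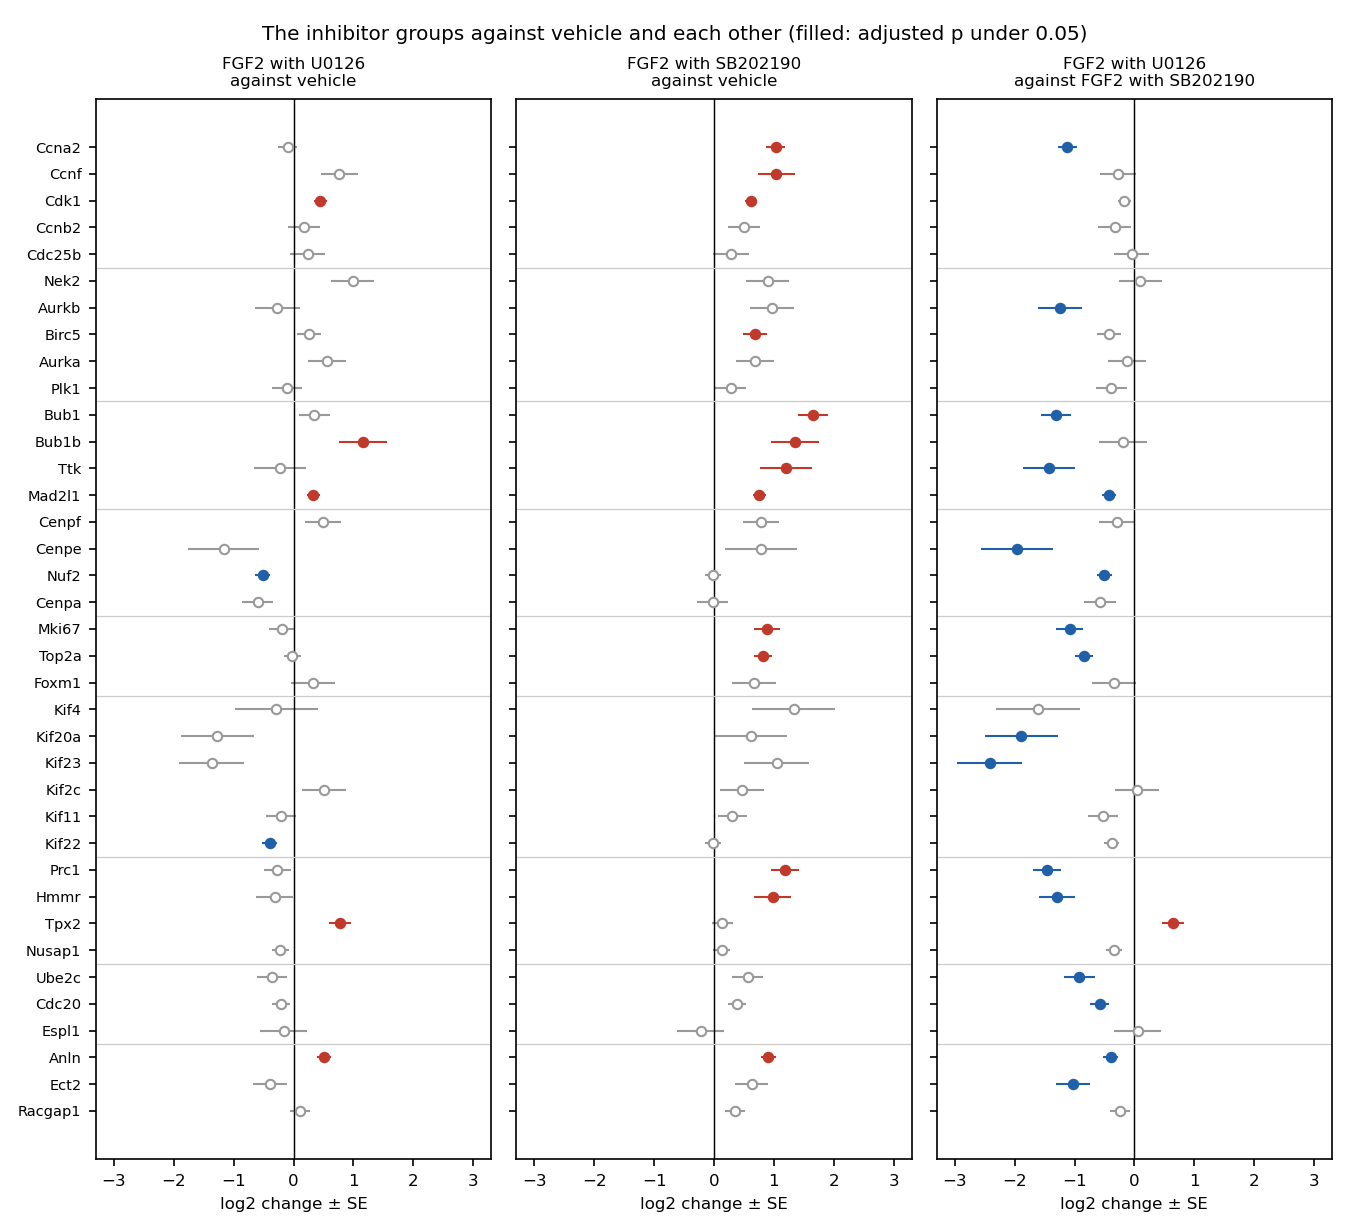
Log2 change (points) with its SE (bars) of the 37 members in FGF2 with U0126 against vehicle, FGF2 with SB202190 against vehicle and FGF2 with U0126 against FGF2 with SB202190, with filled points at an adjusted p under 0.05. The left panel has 5 filled points above 0 and 2 below, the middle panel 13 above, and the right panel 17 below and 1, Tpx2, above.

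A wider list of 76 other mitosis genes, of which 68 were tested, gave 34 higher and 5 lower with FGF2 (50% and 7.35%, beside 18.9% and 19% of all genes, median 0.67), 2 higher and 30 lower with U0126 (2.94% and 44.1%, beside 11.7% and 10.5%, median -0.51), and 1 higher and 0 lower with SB202190 (median -0.18, with 11 lower at an unadjusted p under 0.05 in limma). Cks1b, a small subunit of cyclin-dependent kinases, rose by 1.09 ± 0.06 with FGF2 (adjusted p 2.91e-08) and fell by 0.69 ± 0.06 with U0126 (adjusted p 5.43e-06). Plk4, the kinase of centriole duplication, rose by 1.24 ± 0.14 with FGF2, and the mitotic kinase Pbk fell by 1.86 ± 0.13 with U0126 (adjusted p 9.80e-07). Not all moved this way: Rad21, a cohesin subunit, fell by 1.00 ± 0.09 with FGF2 and rose by 0.75 ± 0.09 with U0126 and by 0.59 ± 0.09 with SB202190 (adjusted p 0.00511), and Ckap5, a microtubule polymerase, fell by 0.77 ± 0.09 with FGF2.

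Of 22 genes tested that control transcription of the cell cycle 8 rose and 3 fell with FGF2 (36.4% and 13.6%, beside 18.9% and 19% of all genes), and 0 rose and 4 fell with U0126 (18.2% lower, beside 10.5%, with 1 higher at an unadjusted p under 0.05 in limma). With SB202190 0 were called by limma, 1 being higher and 2 lower at an unadjusted p under 0.05, and changes ran from -1.61 to 0.38. E2f8, an E2F repressor, rose by 1.94 ± 0.33 with FGF2 (adjusted p 3.84e-04) and fell by 1.16 ± 0.33 with U0126 (adjusted p 0.0213). Rbl1, the p107 pocket protein, rose by 1.27 ± 0.16 with FGF2, while Rb1, the retinoblastoma protein, fell by 0.90 ± 0.08. Nfyb, a subunit of the CCAAT-binding factor, rose by 0.51 ± 0.11 with FGF2 (adjusted p 0.00293) and fell by 0.35 ± 0.11 with U0126 (adjusted p 0.0459).

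The members were dim on these arrays, with mean signals from 15.8 to 320.0, a median of 43.9 and 20 of 37 under 50. Replicate arrays correlated at 0.980 to 0.984 over the genes tested, arrays of different groups at 0.947 to 0.981, and the array medians ran from 22.3 to 27.8. Of 10 neuron markers 5 passed the filter (Map2, Tubb3, Nefm, Syt1 and Gad1), and Rbfox3, Snap25, Slc17a7, Gad2 and Nefl did not. Map2 had group means of 387 to 574 and Tubb3 of 51.6 to 156, and with FGF2 2 of the 5 were higher (Tubb3 and Nefm) and 1, Map2, lower. The neuron sums were 774 to 776 with vehicle, 729 to 751 with FGF2, 569 to 578 with U0126 and 689 to 727 with SB202190. All 10 astrocyte markers passed, and all 10 fell with FGF2 while 7 rose with U0126 against FGF2. Their summed signal was 24965 to 25213 with vehicle, 13424 to 13542 with FGF2, 16569 to 16864 with U0126 and 13106 to 13290 with SB202190. The oligodendrocyte precursor markers, 5 of 6 above the filter, summed to 2074 to 2081, 4232 to 4370, 3308 to 3411 and 3689 to 3801 in the same groups. That sum was mostly Olig1, with means of 1634 with vehicle and 3212 with FGF2, and Olig2, with 249 and 907, the 2 of the 5 called higher. Pdgfra had 131 and 143, Sox10 42.4 and 27.3, and Cspg4 19.6 and 10.6, and the median change of the list was 0.16. The neural progenitor markers, 7 of 7, summed to 19478 to 19786, 20827 to 23998, 18979 to 19475 and 20163 to 20439. Of 10 microglia markers 4 passed, and Aif1, Itgam, Cx3cr1, P2ry12, Ptprc and C1qa did not, with sums of 304 to 363, 292 to 315, 409 to 413 and 286 to 322. All 6 ependymal markers passed, of which 5 fell with FGF2 (median -1.23) and 4 rose with U0126 against FGF2, with sums of 6356 to 6593, 3619 to 4525, 4307 to 5510 and 3619 to 4347. Of 9 meningeal fibroblast and pericyte markers, all above the filter, 7 fell with FGF2 (median -0.86), 2 rose and 2 fell with U0126 against FGF2, and the sums were 17229 to 17720, 12019 to 13283, 13872 to 14070 and 10381 to 11449. Endothelial markers (4 of 7 above the filter) summed to 177 to 184, 140.1 to 147, 101 to 127 and 102 to 125, and myelinating oligodendrocyte markers (2 of 6) to 2458 to 2544, 2060.4 to 2200.4, 1559 to 1563 and 2176 to 2355. The ratio of 3′ to 5′ Actb probe sets, a sign of RNA integrity, was 1.31 and 1.40 with vehicle, 1.35 and 1.38 with FGF2, 1.28 and 1.26 with U0126 and 1.41 and 1.40 with SB202190. The part of these marker levels and of RNA quality in the results on the members was not tested.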

How the data were processed

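Total RNA of 8 samples was measured on 1 array each. The deposited values are linear intensity values, which the authors had scaled so that each array's mean was 150.0 after 2% of values had been trimmed at each end, as the values show. The sources used here name neither the algorithm nor a genome build of the array. Values were taken to log2(value + 1.77), 1.77 being the 10th percentile of all values, and quantile normalized. Probe sets were named through the platform annotation, 34958 with 1 symbol, 932 with several and 9211 with none. All 8 arrays entered 1 limma fit (version 3.58.1, R 4.3.3) with a trend on intensity (prior degrees of freedom 9.04, residual 4), with two-sided p adjusted by Benjamini-Hochberg within each of 6 comparisons over the 13173 genes above the filter. The procedure was tested on simulated data. Signals are the deposited values.

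The members, their roles, the other lists and the rule for named genes (any member, and up to 4 genes with the smallest p per other list and comparison) were chosen with earlier results of these data known. Same-numbered replicates had deviations that correlated at -0.03 to 0.03, so numbers were not used to pair samples. The alternatives were other normalizations, pseudocounts (1 and 16), filters, probe set rules, variance priors, thresholds, a replicate block and leaving out each array. Promoter windows came from RefSeq (GRCm38.p6). Figures were drawn with Python 3.11.15.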

Additional observations from a re-analysis of the deposited data

How the results depend on the processing

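Direction held in every comparison of members called with FGF2 or between FGF2 and an inhibitor when normalization, pseudocount, filter, variance prior or arrays were changed, and the exceptions below came from the choice of probe sets. With 2 arrays per group, each count near the threshold moved with single arrays, and signals of members under 50 limit their precision. Calls over all genes moved with the setting too. With SB202190 against FGF2, for example, 224 genes were called lower in the main fit and 0 with no intensity trend. Where no count over all genes stands beside that of the members, the 2 cannot be compared. Of the calls, 10 of 25 with FGF2 against vehicle held under all alternatives (Anln, Birc5, Bub1, Ccna2, Cdk1, Cenpf, Mad2l1, Mki67, Prc1 and Ttk, where tested), as did 10 of 23 with U0126 against FGF2, 0 of 1 with SB202190 against FGF2, 1 of 7 with U0126 against vehicle, 5 of 13 with SB202190 against vehicle and 4 of 18 between the inhibitors.

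For FGF2 against vehicle, 25 members higher became 14 with a filter at the 60th percentile (16 members tested), 13 with the mean of probe sets (30 tested), 16 without the probe sets with a suffix of _s, _x or _a, whose probes match several transcripts, for _a those of 1 gene (27 tested), 15 at an adjusted p under 0.01, and 15 to 27 when single arrays were left out. Over all genes the higher calls were 2425 of 9996 with that filter and 1783 of 12469 with the mean of probe sets. They were 2040 of 11557 without suffixed probe sets and 1765 of 13173 at an adjusted p under 0.01. The members' median of 1.00 became 0.87 without normalization, 0.75 with a pseudocount of 16, 0.79 with the mean of probe sets and 0.91 to 1.05 without single arrays. For U0126 against FGF2, 23 lower became 14 with the stricter filter, 14 without suffixed probe sets and 15 to 24 without single arrays. Over all genes the lower calls were 1371 of 9996 with that filter and 1107 of 11557 without suffixed probe sets. The members' median became -0.65 with a pseudocount of 16, -0.67 without suffixed probe sets and -0.92 to -0.82 without single arrays.

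For SB202190 against FGF2, the 1 lower call became 2 without normalization or with the stricter filter and 0 with median centring, a pseudocount of 1, no filter, no intensity trend, the mean of probe sets, no suffixed probe sets, every probe set or an adjusted p under 0.01, and 0 to 1 without single arrays. For U0126 against vehicle, 5 higher became 3 with no filter, with only the arrays compared or at an adjusted p under 0.01, 1 with the mean of probe sets and 2 to 5 without single arrays. The 2 lower became 4 without normalization, 1 with median centring, the mean of probe sets or an adjusted p under 0.01, 0 without suffixed probe sets and 1 to 2 without single arrays. The median of -0.11 became -0.25 without normalization and -0.16 to 0.0028 without single arrays, above 0 at 0.0028 and 0.0025 without the first and the second U0126 array.

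For SB202190 against vehicle, 13 higher became 8 with the stricter filter, the mean of probe sets, no suffixed probe sets or an adjusted p under 0.01, and 10 to 14 without single arrays. Over all genes the higher calls were 2322 of 9996 with that filter and 1711 of 12469 with the mean of probe sets. They were 1957 of 11557 without suffixed probe sets and 1625 of 13173 at an adjusted p under 0.01. The members' median of 0.68 became 0.56 without normalization, 0.76 with median centring, 0.50 with a pseudocount of 16, 0.58 with the mean of probe sets and 0.59 to 0.79 without single arrays. Between the inhibitors, 1 higher became 0 with no filter, the mean of probe sets or an adjusted p under 0.01 and 0 to 1 without single arrays. The 17 lower became 11 with the stricter filter or the mean of probe sets, 8 with no intensity trend, 9 without suffixed probe sets, 7 at an adjusted p under 0.01 and 6 to 18 without single arrays, with a median of -0.54 to -0.43.

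Signs turned for a few called members. With the mean of probe sets Nusap1 stood at -0.33 with FGF2, Bub1b at -0.072 and Tpx2 at -0.072 with U0126 against vehicle, and Top2a at -0.24 with SB202190 against vehicle and 0.33 between the inhibitors. Without suffixed probe sets Top2a, then read by 1442454_at in place of 1454694_a_at, stood at -0.93 with FGF2, 0.34 with U0126 against FGF2, -1.02 with SB202190 against vehicle and 0.43 between the inhibitors, while Bub1b stood at -0.30 and Kif22 at 0.43 with U0126 against vehicle. None of these turned values was called.

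A replicate block gave 26 members higher with FGF2 against vehicle, 23 lower with U0126 against FGF2, 1 lower with SB202190 against FGF2, 5 higher and 2 lower with U0126 against vehicle, 13 higher with SB202190 against vehicle, and 1 higher and 17 lower between the inhibitors. The replicate numbers did not pair the samples (correlations of -0.03 to 0.03 between deviations of same-numbered samples).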
